A study of Mus musculus with 112 samples.

Results

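Dorsal skin of 15 mice was compared between 8 skins with growing (anagen-like) hair follicles and 7 skins with resting ones, out of 112 arrays of skin and skin tumours. The classes were defined by measured values, since no label gives a hair cycle stage. Each skin was scored as the mean log2 value of Krt31 and Krt33a, a pair of acidic keratins of the hair shaft cortex, and a score above 8 was called growing and a score of 8 or below resting. All other genes were then compared between the classes with genotype as a covariate. The comparison therefore describes what goes with hair keratin expression from mouse to mouse, and not the effect of a treatment.

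The mice were males from a backcross in which Mus spretus and FVB hybrids were mated to FVB, so each mouse carries its own mix of alleles. When 8 weeks old, all of them received a single 25 mg dose of DMBA, a mutagen, followed by 200 uL of the tumour promoter TPA 2 times a week, primary tumours larger than 1 cm were removed by surgery, and all mice had metastatic disease when the skin was taken. Growing skin came from 3 of the 6 mice that carry the knockout labelled HrasKO and from 5 of the 9 wild-type (WT) mice, and the class was not associated with genotype (Fisher's exact test, two-sided p = 1). The skin is labelled normal, but it was exposed to the carcinogen and promoter, and its age when taken is not given in the labels. No untreated skin was analysed here.

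Hair follicles pass through growth (anagen), regression (catagen) and rest (telogen). In growth, Wnt and hedgehog signals between the dermal papilla and the epithelial matrix keep matrix cells dividing, and their daughters form concentric layers. The hair shaft is built from hair keratins cross-linked by keratin-associated proteins, and the inner root sheath around it is built from a separate set of keratins and from trichohyalin. In resting follicles these layers are not made, and a small germ of stem cells remains at the base.

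Krt31 lay between 9.88 and 12.1 in growing skin with a median of 11.1, against 4.14 to 6.61 with a median of 4.49 in resting skin (log2 values made by robust multi-array averaging, RMA). Krt33a lay between 10.9 and 12.96 with a median of 12.1 in growing skin, against 4.46 to 7.13 with a median of 4.80 in resting skin. The growing mouse just inside the threshold, mouse 1509, had a score of 10.4, and the resting mouse just outside it, mouse 1407, had a score of 6.87. The next resting score was 5.13, so mouse 1407 stood between the other resting skins and the growing ones. These values chose the classes and are given as a description.

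**Figure D1:**
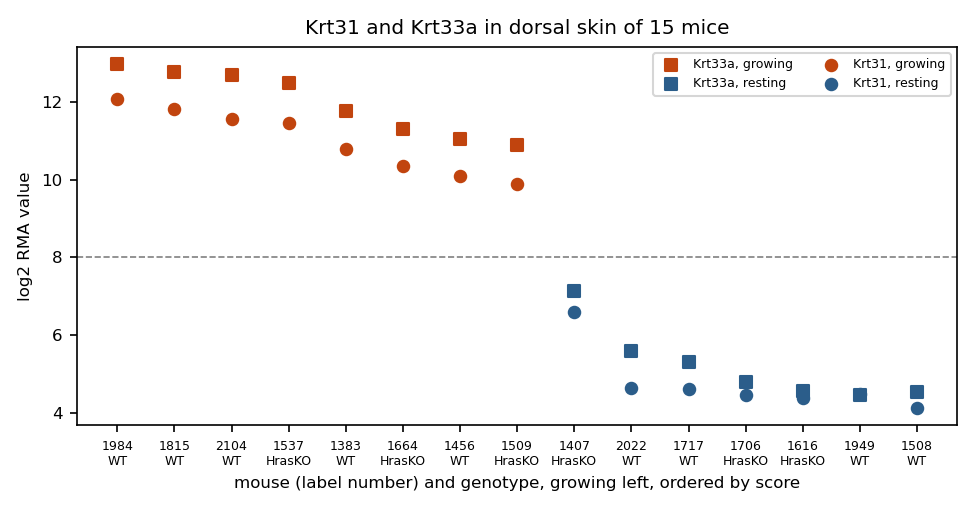
Log2 RMA values of Krt31 (circles) and Krt33a (squares) in the dorsal skin of each of the 15 mice, growing class left, with the mouse number and genotype under each pair of points and the score threshold of 8 as a dashed line. The growing scores ran from 10.4 to 12.5 and the resting scores from 4.34 to 6.87.

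Of 18770 genes tested, 687 (3.66%) passed an adjusted p of 0.05, of which 572 (3.05%) were higher and 115 (0.613%) were lower in growing skin (limma, Benjamini-Hochberg adjusted). The 572 include 60 genes of the shaft lists, which go with the genes that set the classes. These shaft genes are also in the other counts and shares over all genes. The median difference over all genes was -0.03, which the normalization between arrays holds near 0. More than 2-fold differences were seen for 309 of the higher and 13 of the lower genes, and 75 genes were over 16-fold higher, 48 of them hair shaft genes. All growing values lay above all resting values for 246 genes (1.31%), and all lay below them for 23 genes (0.123%). When the arrays were quantile normalized again, 693 genes passed and the share of higher ones was 69.6%, against 83.3% in the deposited values. The 2 batch 2 skins were both growing, and batch 1 alone (6 growing and 7 resting skins) gave 398 genes, 377 of them among the 687. Leaving out mouse 1537, 1508 or 1383 gave 408, 433 and 1094 genes.

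Shaft keratins set the classes, so hair shaft genes are described without a test. In whole skin, fewer cells of a type and less RNA per cell cannot be told apart. All 10 other measured hair keratins were higher in every growing skin than in every resting skin, with a median log2 difference of 4.41. Such separation was seen for 1.31% of all genes. Krt86, a basic hair keratin, lay between 7.69 and 11.2 with a median of 9.58 in growing skin, against 2.90 to 4.01 with a median of 3.09 in resting skin. Krt35, an acidic keratin of the lower shaft, lay between 8.08 and 11.3 with a median of 9.78 in growing skin, against 4.998 to 6.48 with a median of 5.09 in resting skin. Krt36 had the smallest difference of the hair keratins, with 5.70 to 6.88 in growing skin against 3.75 to 4.89 in resting skin (difference 1.86). Krt32, Krt33b, Krt34, Krt39, Krt40, Krt82 and Krt84 had differences from 3.14 to 5.55.

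Keratin-associated proteins, the cysteine-rich or glycine- and tyrosine-rich matrix between the keratin filaments of the shaft, had a median difference of 5.57 over 45 measured genes. Growing values lay above all resting values for 43 of the 45, against 1.31% of all genes, the exceptions being Krtap13 and Krtap5-3. Those named here are Krtap8-1, Krtap7-1, Krtap11-1, Krtap4-2 and Krtap5-5, picked by their array values in growing skin, which do not rank the genes by transcript level. Krtap8-1 lay between 11.1 and 12.995 with a median of 12.8 in growing skin, against 3.75 to 7.47 with a median of 4.33 in resting skin, a difference of 7.49. Krtap11-1 lay between 10.8 and 12.9 in growing skin, against 4.28 to 5.65 in resting skin, a difference of 7.32. Krtap13 stayed near its lowest level in all skins, at 3.69 to 4.05 in growing and 3.56 to 3.81 in resting skin. These genes are closely related and lie in clusters, 22 on chromosome 16, 15 on chromosome 11, 5 on chromosome 7 and 3 on chromosome 10 (RefSeq, GRCm38.p6), so a probe set may also read neighbouring copies.

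Other shaft and cuticle genes followed, with a median difference of 4.31 over 9 genes. Gprc5d, a membrane receptor of shaft keratinocytes, lay between 10.1 and 12.03 in growing skin, against 3.82 to 6.01 in resting skin. Dsg4, a desmosomal cadherin of the shaft whose loss gives fragile hair, lay between 7.88 and 10.8 in growing skin, against 3.38 to 5.69 in resting skin. Padi3, which converts arginine of hair proteins to citrulline, lay between 8.38 and 10.99 in growing skin, against 4.76 to 6.44 in resting skin. Tgm3, a transglutaminase that cross-links them, overlapped between the classes, with 8.69 to 11.2 in growing skin against 6.66 to 10.1 in resting skin.

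The promoters of 57 of the 66 shaft genes (the 3 lists with Krt31 and Krt33a) are in the RefSeq promoter table, which holds 250 bases before and 50 after each gene start. The TATA box letters TATAAA stand in 44 of the 57 (77.2%), against 15.7% of all 27025 promoters, counting both strands. The letters CTTTGAA, of the kind bound by LEF1 and TCF factors, stand in 14 of the 57 (24.6%), against 5.93% of all promoters. The overlapping forms CTTTGA and CTTTGNA differed less, with 35.1% and 36.8% of the 57, against 18.2% and 20.3% of all promoters. TTTTATGG stands in 6 of the 57 (10.5%), against 1.08% of all. Many shaft genes are copies of one another, so their promoters are not independent. Krt31, which helped to choose the classes, and the nearby Krt34 are shown because they move together and hold all 3 motifs, which are in capitals (GRCm38.p6, minus strand, chr11:100050502-100050801 and chr11:100041505-100041804).
Krt31: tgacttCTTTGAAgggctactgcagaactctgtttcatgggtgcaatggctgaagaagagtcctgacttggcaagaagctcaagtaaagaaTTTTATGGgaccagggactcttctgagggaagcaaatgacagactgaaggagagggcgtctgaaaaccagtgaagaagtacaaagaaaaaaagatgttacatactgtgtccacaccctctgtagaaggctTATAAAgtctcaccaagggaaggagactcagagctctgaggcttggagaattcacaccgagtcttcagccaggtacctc
Krt34: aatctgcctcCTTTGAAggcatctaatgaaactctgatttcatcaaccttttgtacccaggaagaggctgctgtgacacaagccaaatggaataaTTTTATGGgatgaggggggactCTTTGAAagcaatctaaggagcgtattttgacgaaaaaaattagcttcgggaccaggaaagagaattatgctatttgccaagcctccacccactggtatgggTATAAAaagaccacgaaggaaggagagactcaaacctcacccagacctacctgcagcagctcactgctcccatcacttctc

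The inner root sheath, which the rule did not use, was higher in growing skin by differences as large as those of the shaft. Of 12 measured genes of the inner root sheath and companion layer, 11 rose and none fell, with a median difference of 5.93. Growing and resting values did not overlap for those 11. The shares over all genes were 3.05% rising and 1.31% with growing values above all resting values. Krt71, the basic keratin of all inner root sheath layers, lay between 11.1 and 12.7 with a median of 12.3 in growing skin, against 4.06 to 10.4 with a median of 4.37 in resting skin. It was 6.94 ± 0.80 higher (log2 difference ± SE, limma adjusted p = 8.02e-05). Its acidic partner Krt25 lay between 10.4 and 11.95 with a median of 11.6 in growing skin, against 3.89 to 9.38 with a median of 4.19 in resting skin, and was 6.46 ± 0.66 higher (limma adjusted p = 2.42e-05). The resting maximum of both was mouse 1407.

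Krt72, found in the inner root sheath cuticle, lay between 9.70 and 11.99 in growing skin, against 4.51 to 5.89 in resting skin, and was 6.11 ± 0.35 higher (limma adjusted p = 5.34e-08). Krt27, Krt28, Krt26 and Krt73 were higher by 6.32, 6.05, 5.94 and 5.90. Tchh, trichohyalin, which hardens the inner root sheath and medulla, lay between 11.4 and 12.6 in growing skin, against 5.03 to 9.08 in resting skin, and was 5.93 ± 0.48 higher (limma adjusted p = 1.78e-06). Tchhl1, a relative of trichohyalin, was 5.57 higher. Krt75, the keratin of the companion layer, was 3.39 higher and Krt74, of the Huxley layer in human follicles, 2.42 higher. Gata3, a transcription factor that directs inner root sheath fate and is also made in the epidermis, did not pass, with 10.99 to 11.5 in growing and 9.78 to 11.5 in resting skin.

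The Krt71 promoter (GRCm38.p6, minus strand, chr15:101743048-101743347) is shown for comparison with the shaft keratins, since Krt71 had the largest difference outside the shaft lists. It has the TATA box letters, in capitals, and neither CTTTGAA nor TTTTATGG. Among the 11 inner root sheath genes with a promoter entry, 7 (63.6%) hold TATAAA and 2 (18.2%) hold CTTTGAA, against 15.7% and 5.93% of all promoters. The shorter CTTTGA stands in 18.2% of the 11 and in 18.2% of all promoters.
Krt71: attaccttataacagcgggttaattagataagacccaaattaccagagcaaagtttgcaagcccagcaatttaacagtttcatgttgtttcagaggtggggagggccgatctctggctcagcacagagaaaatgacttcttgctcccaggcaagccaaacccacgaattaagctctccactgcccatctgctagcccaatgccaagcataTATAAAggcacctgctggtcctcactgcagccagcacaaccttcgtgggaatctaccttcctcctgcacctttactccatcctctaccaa

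Among the 12 largest rises outside the shaft lists, 9 were these inner root sheath genes. The others were Crnn, Calhm4 and Lyg2. Crnn, cornulin, a relative of trichohyalin known from squamous epithelia, lay between 10.2 and 11.996 in growing skin, against 4.14 to 6.68 in resting skin, and was 6.57 ± 0.38 higher (limma adjusted p = 5.34e-08). Calhm4, of a family of calcium homeostasis modulator channels, was 5.90 higher, with 7.85 to 10.6 in growing against 3.32 to 5.28 in resting skin. Lyg2, a goose-type lysozyme relative, was 5.27 higher, with 7.57 to 11.05 in growing against 3.61 to 6.57 in resting skin.

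Mouse 1407, an HrasKO mouse classed as resting, did not match that class for part of the inner root sheath. Its Krt71 was 10.4, against at most 4.41 in the other 6 resting skins and at least 11.1 in growing skin. Its Krt25, Krt27, Tchh and Krt73 were 9.38, 9.29, 9.08 and 8.25, each between the growing skins and the other resting ones. Krt28, Krt72 and Krt26 were nearer the resting skins than the growing ones, at 5.69, 5.89 and 5.41, against resting maxima of 3.87, 5.16 and 4.81 in the others. Krt74 was within the resting range. Among hair keratins, Krt33b, Krt35 and Krt82 were 6.86, 6.48 and 5.73 in mouse 1407, against maxima of 5.29, 5.42 and 4.84 in the other resting skins. Krt86 and Krt39 were 4.01 and 4.13, against 3.24 and 3.996, and Krt34 was within the resting range. All of the hair keratins were below the growing skins. Its value was above all other resting skins for 8 of 12 inner root sheath genes, 6 of 10 hair keratins and 19 of 45 keratin-associated proteins, against 9.6% of all genes tested. Mouse 1407 had the highest score of the resting class and shaft genes move with the score, so the shaft counts are a description. Without mouse 1407 the Krt71 difference was 7.79 and the Krt25 difference 7.16, and 547 genes passed, 478 of them higher.

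**Figure D2:**
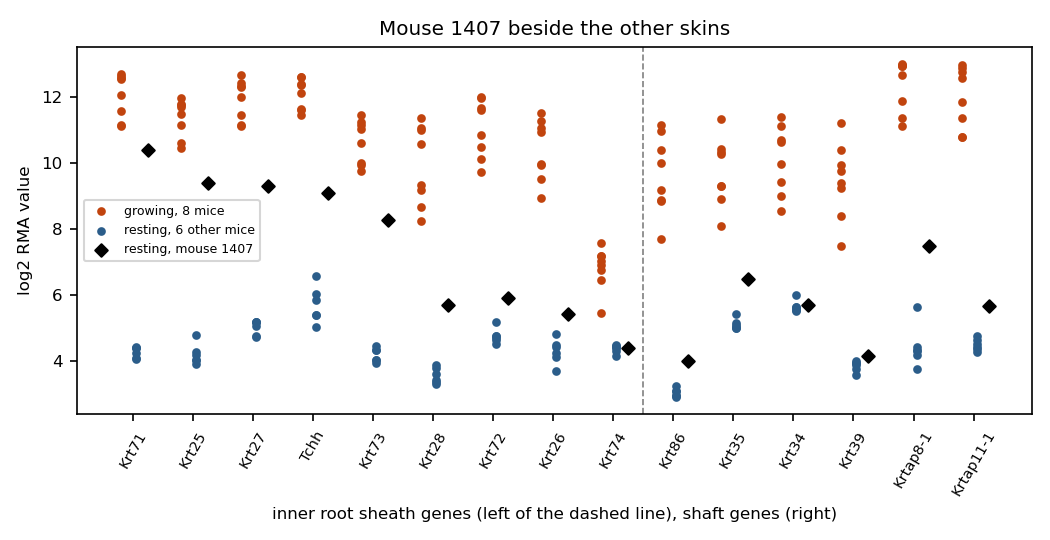
Log2 RMA values of 9 inner root sheath genes (left of the dashed line) and 6 shaft genes (right) in 8 growing skins, in the 6 other resting skins and in mouse 1407 (diamonds). Mouse 1407 lies between the classes for Krt71, Krt25, Krt27, Tchh and Krt73 (10.4 to 8.25) and near the resting skins for Krt74, Krt34 and Krt39.

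Transcription factors of the hair matrix and shaft rose in 10 of 15 cases, against 3.05% of all genes, and fell in none. The list had a median difference of 1.39. Msx2, a homeobox factor needed for shaft differentiation, lay between 6.90 and 9.40 with a median of 8.40 in growing skin, against 4.51 to 6.06 with a median of 5.16 in resting skin. It was 3.18 ± 0.34 higher (limma adjusted p = 4.22e-05). Dlx3, a homeobox factor of the matrix, shaft and inner root sheath, lay between 8.76 and 11.02 in growing skin, against 6.15 to 8.31 in resting skin, and was 2.72 ± 0.38 higher (limma adjusted p = 0.000601). Hoxc13, which directly controls hair keratin genes, was 2.66 higher, Foxn1, the factor lost in nude mice, 2.51 higher, and Lef1, the Wnt effector of the hair precortex, 2.44 higher. Dlx2, Sp6, Ovol1, Foxe1 and Dlx1 rose by 1.60, 1.56, 1.39, 0.84 and 0.71. Leaving out one mouse at a time gave from 8 (without mouse 1537) to 11 rises among the 15.

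Wnt, hedgehog and bone morphogenetic protein (BMP) signalling genes rose in 10 of 22 cases, against 3.05% of all genes, and fell in none. Their median difference was 0.34. Bambi, a decoy receptor of the transforming growth factor family, lay between 7.27 and 9.84 with a median of 8.85 in growing skin, against 6.09 to 6.73 with a median of 6.21 in resting skin. It was 2.51 ± 0.29 higher (limma adjusted p = 9.57e-05). Wnt11, a Wnt ligand, lay between 6.66 and 8.05 in growing skin, against 5.35 to 6.23 in resting skin, and was 1.55 ± 0.20 higher (limma adjusted p = 0.000302). Shh, the hedgehog ligand made in the matrix, was 1.52 higher and overlapped slightly, with 4.88 to 7.10 in growing and 3.94 to 5.12 in resting skin. The hedgehog effector Gli1 and the receptor and target Ptch1 were 1.48 and 0.81 higher. Wnt5a, Gli2, Bmp7, Wnt10b and Ctnnb1 rose by 1.13, 0.91, 0.86, 0.74 and 0.35. With batch 1 alone, and also without mouse 1537, 6 of the 22 passed, all as higher.

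**Figure D3:**
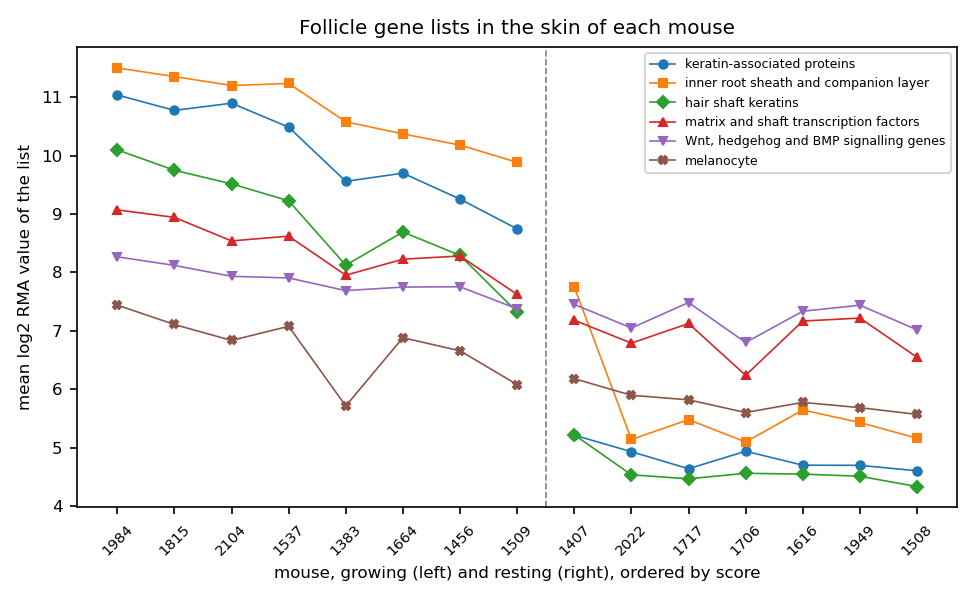
Mean log2 RMA value of 6 gene lists in the skin of each mouse, growing mice left of the dashed line and resting mice right of it, ordered by score. The inner root sheath list ran from 9.89 to 11.5 in growing skin and from 5.10 to 7.75 in resting skin, the highest resting value being mouse 1407.

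Within the growing class, some lists outside the shaft had their extremes in the mice with the extreme scores. The inner root sheath list had its highest mean in mouse 1984 (11.5) and its lowest in mouse 1509 (9.89), which had the highest and the lowest score. The matrix transcription factors had their extremes in the same mice, at 9.07 and 7.62, and so did the signalling genes, at 8.27 and 7.38. The hair shaft keratins ran from 7.32 in mouse 1509 to 10.1 in mouse 1984. Some other lists shared only the upper extreme. Melanocyte, cell cycle and stem cell genes were also highest in mouse 1984 (7.44, 9.02 and 9.30). Their lowest means were in mouse 1383 for melanocyte and cell cycle genes (5.71 and 6.80) and in mouse 1456 for stem cell genes (8.74). Dermal papilla genes were highest in mouse 2104 (7.51) and lowest in mouse 1383 (6.64).

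Dermal papilla genes, expressed by the small mesenchymal cluster that instructs the follicle, rose in 3 of 20 cases and fell in none. The share rising over all genes was 3.05%, and the list had a median difference of 0.07. Corin, a protease of the papilla, lay between 5.90 and 6.93 in growing skin, against 4.74 to 5.67 in resting skin, and was 1.33 ± 0.18 higher (limma adjusted p = 0.000592). Wif1, a secreted Wnt inhibitor, was 1.52 ± 0.36 higher (limma adjusted p = 0.0288), with 6.40 to 8.26 in growing and 4.69 to 6.58 in resting skin, and it passed in 8 of 15 fits with one mouse left out. Prdm1, a transcriptional repressor, was 0.94 higher. With batch 1 alone, and also without mouse 1537, 1 of the 20 passed.

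Of a mixed list of 18 stem cell and resting follicle genes, 3 rose, against 3.05% of all genes, and none fell. Differences were positive for 14 and negative for 4, where 43.7% of all genes were positive. Their median difference was 0.28. Fgf5, the growth factor that ends anagen, lay between 5.15 and 7.44 with a median of 6.28 in growing skin, against 4.28 to 5.16 with a median of 4.57 in resting skin, and was 1.69 ± 0.29 higher (limma adjusted p = 0.00395). Lgr5, a receptor of follicle stem and lower follicle cells, lay between 8.44 and 9.93 in growing skin, against 6.16 to 8.32 in resting skin, and was 1.68 ± 0.31 higher (limma adjusted p = 0.00566). Tbx1, a stem cell transcription factor, was 0.95 higher. Fgf18, a growth factor made by resting stem cells, did not pass, at -1.14 (limma adjusted p = 0.0626), with 6.00 to 6.85 in growing and 6.03 to 8.55 in resting skin. Cd34, a bulge marker, had -0.51 and did not pass (limma adjusted p = 0.118). Esr1, also of this list, had -1.01 and did not pass (limma adjusted p = 0.0855).

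Melanocyte genes, for the pigment cells that colour the growing shaft, rose in 3 of 16 cases and fell in none. The share rising over all genes was 3.05%, and the median difference of the list was 0.79. Tyr, tyrosinase, lay between 3.51 and 6.51 with a median of 5.56 in growing skin, against 3.396 to 3.87 with a median of 3.62 in resting skin, and was 1.73 ± 0.37 higher (limma adjusted p = 0.0166). Slc24a5 and Oca2, melanosome proteins, were 1.25 and 1.00 higher. Tyrp1 and Dct, the other tyrosinase family enzymes, had differences of 2.54 and 2.36 and did not pass (limma adjusted p = 0.0588 and 0.0601). The list mean of mouse 1383 was 5.71, within the resting range of 5.57 to 6.18, as was mouse 1509 at 6.08, while the highest growing skin reached 7.44. Without mouse 1383, 8 of the 16 passed, and with batch 1 alone none did, where 356 genes of the whole array rose.

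None of the 24 cell cycle genes passed, although all 24 had positive differences with a median of 0.39, where 43.7% of all genes were positive. Top2a and Mcm5, both needed for DNA replication and chromosome handling, had 0.71 and 0.68 (limma adjusted p = 0.305 and 0.296). The list mean ran from 6.80 to 9.02 in growing skin and from 7.04 to 8.38 in resting skin, and the skins overlapped. Mouse 1383, the lowest growing skin, also had the highest skeletal muscle list of the growing class (10.7). The muscle list ranged from 4.99 to 10.7 in growing skin and from 5.67 to 11.3 in resting skin. With the muscle list mean added as a covariate, 845 genes passed in all, 678 of them higher. The cell cycle list then had 0 calls and a median of 0.20. The part of muscle in these values was not tested.

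Genes of epidermal differentiation had positive differences in 15 of 17 cases, from -0.24 to 1.11, with a median of 0.52. Over all genes, 43.7% were positive and 3.05% rose. Only Tgm1, the transglutaminase of the cornified envelope, passed and rose, by 0.91 ± 0.15 (limma adjusted p = 0.00325), with 9.79 to 10.4 in growing against 8.76 to 9.78 in resting skin. Krt10 and Krt1, the main keratins of the spinous layer, had differences of 0.08 and 0.27, and the desmosomal proteins Dsg1b and Cdsn 0.86 and 0.52; none of these passed.

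Of 18 genes of hyperplastic or wounded epidermis, 5 rose, against 3.05% of all genes, and none fell, with a median of 1.34. Defb4, a beta-defensin, lay between 6.94 and 10.1 with a median of 9.02 in growing skin, against 3.54 to 4.95 with a median of 4.10 in resting skin, and was 4.85 ± 0.38 higher (limma adjusted p = 1.18e-06). The connexin genes Gjb6 and Gjb2 were 3.37 and 3.20 higher, and Gjb6 lay between 8.53 and 10.8 in growing skin, against 5.38 to 7.75 in resting skin. Sprr2h, a cornified envelope protein, and Krt6a, a keratin shared by the companion layer and wounded epidermis, were 2.31 and 1.32 higher. As background, connexins and Krt6a are made in the follicle as well as in the epidermis, and whole skin does not separate these sources. With batch 1 alone 3 of the 18 passed.

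Few markers of other skin cells passed, where 3.66% of all genes did. Fads2, a fatty acid desaturase of sebaceous glands, was 1.24 ± 0.27 higher (limma adjusted p = 0.0182), the only one of 12 sebocyte genes to pass. None of 15 adipocyte, 14 fibroblast, 16 skeletal muscle, 8 neutrophil, 8 mast cell, 4 Schwann cell and 8 smooth muscle genes passed, with medians of 0.06, -0.05, -0.44, 0.18, -0.34, 0.16 and -0.23. S100a8, a neutrophil alarmin also made by stressed keratinocytes, had 7.13 to 10.9 in growing skin, against 5.09 to 9.01 in resting skin, a difference of 1.72 that did not pass (limma adjusted p = 0.154). The adipocyte list ranged from 8.13 to 10.8 in growing and from 7.33 to 10.99 in resting skin. Vwf, a blood clotting factor of endothelium, was the only one of 10 endothelial genes to pass, at -0.78 (limma adjusted p = 0.0483), in 4 of 15 fits with one mouse left out. All 10 had negative differences, with a median of -0.38, where 43.7% of all genes were positive. None of 14 circadian clock genes passed, with a median of -0.31. Without mouse 1383, 3 of the 14 fell, where 291 of all genes (1.55%) did, Npas2 (-0.93, limma adjusted p = 0.0239) and Nr1d2 (-0.56, limma adjusted p = 0.0286) among them. Npas2 passed in 1 and Nr1d2 in 2 of the 15 fits with one mouse left out.

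**Figure D4:**
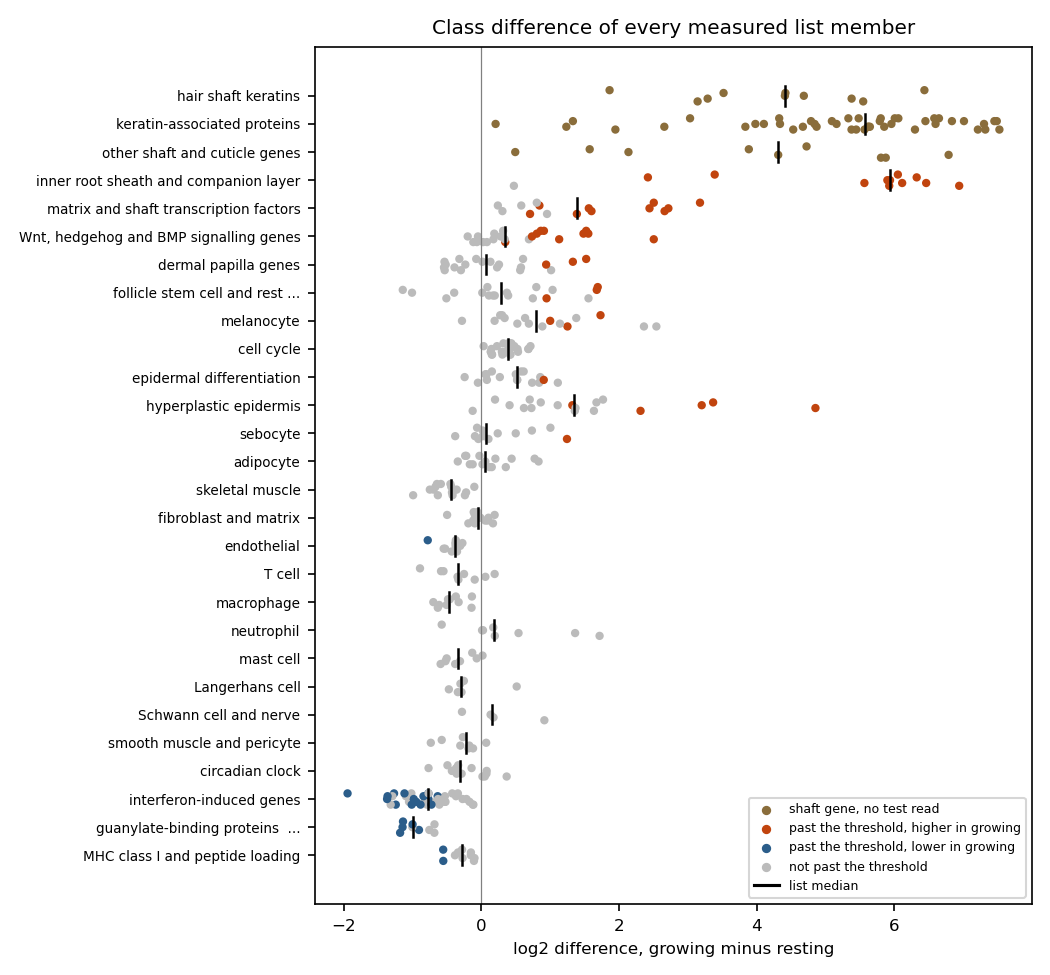
Log2 difference between growing and resting skin for every measured member of each gene list, with the list median as a black bar. Orange points passed as higher and blue points as lower, grey points did not pass, and brown points are shaft genes described without a test. The inner root sheath list stands at a median of 5.93 and the interferon list at -0.77. The medians of the cell type marker lists run from -0.47 (macrophage) to 0.79 (melanocyte).

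The genes lower in growing skin had smaller differences, with no called fall beyond 4-fold. Of the 12 largest, 9 are genes induced by interferons, the antiviral cytokines. Cxcl9, a T cell attracting chemokine, lay between 5.25 and 8.83 with a median of 6.76 in growing skin, against 7.17 to 10.1 with a median of 9.02 in resting skin, and fell by 1.94 on the log2 scale (SE 0.49, limma adjusted p = 0.0406). The classes overlapped, and Cxcl9 passed in 5 of 15 fits with one mouse left out. Usp18, an inhibitor of interferon signalling, lay between 5.77 and 7.01 with a median of 6.51 in growing skin, against 7.11 to 7.99 with a median of 7.71 in resting skin, so the classes did not overlap. It fell by 1.12 (SE 0.18, limma adjusted p = 0.00257).

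Aim2, a sensor of cytosolic DNA, lay between 6.52 and 8.17 in growing skin, against 8.17 to 9.57 in resting skin, so that the classes met without overlapping, and fell by 1.24 (SE 0.24, limma adjusted p = 0.00991). Gbp4, a guanylate-binding protein of cell-autonomous defence, lay between 5.46 and 7.18 in growing skin, against 6.88 to 7.96 in resting skin, and fell by 1.14 (SE 0.19, limma adjusted p = 0.00289). Rtp4, Oasl2, Ifi203, Gbp2 and Gbp7 fell by 1.37, 1.36, 1.27, 1.18 and 1.14. Usp18, Aim2, Gbp4, Ifi203 and Gbp2 passed in all 15 fits with one mouse left out, while Rtp4, Oasl2 and Gbp7 passed in 5, 3 and 6. The other 3 of the 12 are Pcp4l1, a relative of the calmodulin regulator Pcp4, Aff2, a nuclear protein of transcription and splicing, and Lrrn3, a neuronal leucine-rich repeat protein, which fell by 1.14, 1.07 and 1.05.

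**Figure D5:**
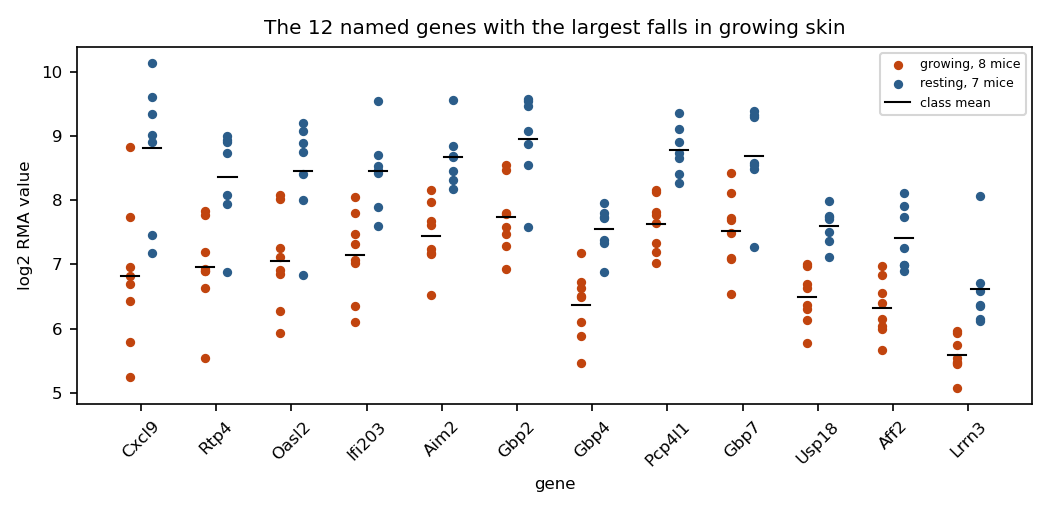
Log2 RMA values of the 12 named genes with the largest falls, growing skins left and resting skins right in each pair, with the class means as bars. Usp18, Aim2, Pcp4l1 and Lrrn3 do not overlap between the classes, and Cxcl9 has the largest difference (-1.94).

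Wider lists of such genes, chosen after these values were seen and therefore given as counts, moved the same way. The interferon and GTPase lists include the 9 falls already named, so their counts are not separate evidence from those genes. Cxcl9, Rtp4, Oasl2, Ifi203, Aim2 and Usp18 are counted again among the interferon falls, and Gbp2, Gbp4 and Gbp7 among the GTPase falls. Of 42 interferon-induced genes, 16 fell and none rose, and all 42 had negative differences, with a median of -0.77. Among all genes tested, 0.613% fell and 43.7% had positive differences. Of 9 guanylate-binding proteins and immunity-related GTPases, 5 fell and all 9 were negative, with a median of -0.999. Psmb8 and Psmb10, subunits of the immunoproteasome, were the 2 of 10 genes of MHC class I and peptide loading that fell, by 0.55 each. Psmb8 passed in 3 and Psmb10 in 6 of 15 fits with one mouse left out. Without mouse 1407, 0 of these 10 genes and 2 of the 9 GTPase list genes fell, where 0.368% of all genes did. The interferon list mean ran from 6.33 to 7.30 with a median of 6.71 in growing skin, against 6.91 to 7.93 with a median of 7.79 in resting skin. Mouse 1949 had the lowest resting mean, below the growing mice 2104, 1509 and 1537, and the other resting means lay above all growing ones.

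The counts of interferon genes depended on single mice. Leaving out one mouse at a time gave from 9 (without mouse 1664) to 22 (without mouse 2104) falls among the 42, and 8 of the 16 passed in every such fit. With batch 1 alone 8 passed and without mouse 1407 10 passed, where 0.224% and 0.368% of all genes fell. In HrasKO and in WT mice fitted alone no member passed, and the list medians were -0.79 and -0.74. Immune cell markers were compared beside them. None of 9 T cell, 10 macrophage and 6 Langerhans cell genes passed, with medians of -0.33, -0.47 and -0.30. Negative differences were held by 7 of the T cell, all 10 macrophage and 5 of the Langerhans cell genes. Over all genes tested, 43.7% were positive. The T cell list mean ran from 5.80 to 6.80 in growing and from 6.19 to 7.27 in resting skin, and the macrophage list from 8.48 to 10.4 in growing and from 8.65 to 10.8 in resting skin. Their part in the interferon gene values was not tested.

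Promoters are in the RefSeq table for 37 of the 51 genes of the interferon and GTPase lists. The letters GAAANNGAAA, of the interferon-stimulated response element type, stand in 19 of the 37 (51.4%) on either strand, against 3.99% of all promoters and 3 of 57 shaft promoters (5.26%). The promoters of Gbp2 and Gbp7, both on chromosome 3 and both lower in growing skin, are shown with the match in capitals, read there as its reverse complement (GRCm38.p6, plus strand, chr3:142620413-142620712 and chr3:142530086-142530385).
Gbp2: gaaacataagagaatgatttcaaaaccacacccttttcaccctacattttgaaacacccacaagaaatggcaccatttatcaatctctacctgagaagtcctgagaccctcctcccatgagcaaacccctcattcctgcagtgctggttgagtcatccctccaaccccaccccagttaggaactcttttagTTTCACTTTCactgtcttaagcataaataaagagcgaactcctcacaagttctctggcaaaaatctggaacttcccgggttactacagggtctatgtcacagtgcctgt
Gbp7: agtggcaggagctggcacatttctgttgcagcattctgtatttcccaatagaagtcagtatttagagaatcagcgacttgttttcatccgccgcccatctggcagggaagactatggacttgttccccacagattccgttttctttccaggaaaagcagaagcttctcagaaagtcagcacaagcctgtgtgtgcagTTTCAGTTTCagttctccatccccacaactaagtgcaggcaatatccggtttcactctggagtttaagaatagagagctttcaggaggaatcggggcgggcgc

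The difference between the classes was fitted in each genotype and compared. With HrasKO mice alone 51 genes passed, all higher in growing skin, and with WT mice alone 210 passed, of which 202 were higher. Of the 51, 47 also passed in WT mice. The Krt71 difference was 5.48 in HrasKO mice and 7.93 in WT mice, and the Aim2 difference -1.05 in HrasKO mice and -1.37 in WT mice. No gene passed the test of the difference between the genotypes (limma interaction term, lowest adjusted p = 1), and 418 genes had an unadjusted p under 0.05. Those 418 are fewer than chance alone gives on average at that threshold. HrasKO resting skin includes mouse 1407.

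Papillomas of the same mice, benign tumours that were not used to set the classes, were compared by the class of the skin (means per mouse, 7 mice with growing and 6 with resting skin). No gene of 18772 (0%) passed in limma. An unadjusted limma p under 0.05 was held by 601 genes, fewer than chance alone gives on average at that threshold. Krt31 was 4.85 ± 0.87 in papillomas of mice with growing skin and 4.66 ± 0.72 in papillomas of mice with resting skin (SD, n = 7 and 6), a difference of 0.18 ± 0.43 (SE, limma adjusted p = 1). Krt33a was 5.64 ± 1.24 in papillomas of mice with growing skin and 5.44 ± 1.05 in those of mice with resting skin, a difference of 0.20 ± 0.62. The papilloma minus skin difference of Krt31 in the same mouse was -6.09 ± 1.52 where the skin was growing, against -0.17 ± 1.26 where it was resting (SD). Skin Krt31 is one of the values that set the classes, so this contrast follows from the rule and is given as a description. Without mouse 1407, 1 gene passed in papillomas, Prl2c5, a prolactin family gene (-1.45, limma adjusted p = 0.0161). The score exceeded 8 in 2 of 27 papillomas, 1 of 25 carcinomas and 0 of 45 metastases.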

How the data were processed

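Affymetrix whole-transcript arrays measured total RNA. The authors deposited log2 values of 28204 probe sets made with RMA, per the submitters' processing notes without a version there. Probe sets with 1 gene symbol (21141) were kept, and the one with the highest mean stood for each of 18772 genes. Some genes were not analysed here. The number of arrays limits the precision, and levels of different probe sets cannot be compared.

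Classes were compared in R 4.3.3 by limma 3.58.1 (linear fit and moderated variance, genotype as covariate, Benjamini-Hochberg over all genes, threshold 0.05), with each mouse as 1 sample and Krt31 and Krt33a left out. The fit was tested on simulated data. Alternatives changed the covariates, the mice or batches included, the probe set rule, the low-value filter, the normalization and the variance model. Members and lists were chosen with earlier results of these data known, and the interferon, GTPase and MHC lists after the values of this comparison. Named were the 12 largest rises and falls with a class mean of at least 6, without shaft, predicted, receptor and small RNA genes, and 2 rises and 2 falls per list, or its 2 largest differences. Krt1, Krt10, Krt74, Krt75, Gata3, Cd34, Fgf18, Tyrp1, Dct and the further list members were named after their values were seen.

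Of 9 motifs searched in the promoters on both strands, TATAAA is the TATA box and GAAANNGAAA the interferon type. The LEF1 type was searched as CTTTGAA, its shorter form as CTTTGA and a looser form as CTTTGNA, which overlap. Also searched were TTTTATGG with its part TTTATGG, then TTTATT (19.3% of shaft and 22% of all promoters) and finally GGAAANCCC (1.75% of shaft and 1.91% of all promoters).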

Additional observations from a re-analysis of the deposited data

Results flagged for a closer look

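A gene was set aside when its highest or lowest skin stood apart from the rest of its class by Dixon's test. Krt31 and Krt33a, which set the classes, were not tested. Among the other named genes this happened 22 times in 188 tests, where chance gives about 5%. In 16 cases the skin was mouse 1407, the highest of the resting class. Its values were 10.39 for Krt71, 9.38 for Krt25, 9.29 for Krt27, 9.08 for Tchh, 8.25 for Krt73 and 5.69 for Krt28 among inner root sheath genes. Among shaft genes they were 6.86 for Krt33b, 6.48 for Krt35, 4.01 for Krt86, 5.65 for Krtap11-1, 6.01 for Gprc5d and 5.69 for Dsg4. The remaining ones were Crnn at 6.68, Lyg2 at 6.57, Calhm4 at 5.28 and Bambi at 6.73. The tests share 1 mouse and related genes, so they are not independent, and shaft genes move with the score.

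Mouse 1949 was the lowest resting skin for Gbp7 (7.27), Irgm1 (7.34) and Psmb10 (7.56), genes that fell in growing skin. Mouse 2022 was the highest resting skin for Krt34 (6.00) and Lrrn3 (8.07). In growing skin, mouse 1383 was the lowest for Defb4 (6.94), which was still above every resting skin.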

How the results depend on the processing

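Against 687 genes that differed between growing and resting skin, fits with fewer mice gave 51 with HrasKO arrays alone, 210 with WT arrays alone and 398 with batch 1 arrays alone, of which 49, 203 and 377 were among the 687. Leaving out one mouse at a time gave from 408 to 1094 genes, and for papillomas from 0 to 1, the 1 without mouse 1407. The other alternatives, from no genotype covariate to the score as a continuous measure, gave from 466 (batch as a covariate) to 999 genes. The p of class against genotype was 1 with the score taken over all probe sets and with batch 1 alone. No named gene past the threshold changed direction in any fit. Of 53 called named genes outside the shaft lists, 36 passed in every fit with one mouse left out, 24 of 26 rises and 12 of 27 falls. The cause of these losses was not tested. No paired analysis was possible because the classes hold different mice.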

Other observations

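Some genes with large rises belong to no list and were picked after their values were seen. Padi1, a peptidylarginine deiminase of epidermis and follicle, lay between 6.82 and 10.6 in growing skin, against 4.30 to 5.14 in resting skin, and was 4.25 higher (limma adjusted p = 2.05e-05). Tgm6, a transglutaminase, was 3.87 higher, Crym, a thyroid hormone binding protein, 4.41 higher, and Lrrc15, a leucine-rich repeat membrane protein, 4.54 higher. Fbp1, an enzyme of gluconeogenesis, lay between 9.06 and 11.5 in growing skin, against 4.29 to 7.95 in resting skin, and was 4.90 higher (limma adjusted p = 4.80e-05). Of the 572 higher genes, 465 are in no list used here, and of the 115 lower genes, 91 are in none.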
